A study of Mus musculus with 9 samples.

Results

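The genes of the proteasome were followed in tumor cells sorted from mice with pancreatic ductal adenocarcinoma (PDAC). They were chosen by symbol, as the protein-coding mouse genes named Psma to Psmg followed by a number, with pseudogenes left out, which gave 48 of the 47643 genes in the files. Of these, 45 held at least 100 counts in the 9 libraries together and were tested. Psma8, Psmb11 and Psme2b fell under that sum. Psmc3ip was caught by its name alone: it encodes a partner of the meiotic recombination machinery and no proteasome subunit, so counts are also given without it.

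RNA came from FACS-sorted cells of 2 mouse lines. The alleles of KPF mice included Trp53frt/+, Pdx-Flp and R26FSF-CreER/Dual, and these mice gave 6 libraries of GFP+Yap+ cells. KPYYF mice carried the same alleles with Yapflox/flox in addition, and gave 3 libraries of Tm+Yap- cells from relapsed nodules. In both lines Flp, driven by the Pdx1 promoter in the pancreas, removed Trp53 and turned on the green reporter. Tamoxifen (TAM) was given through the diet to both lines, and activates CreER, which deletes floxed Yap and turns the reporter from green to red. Yap status, mouse line, reporter color, recombination by CreER and origin from relapsed nodules therefore changed together and cannot be told apart. Ages of single mice and processing batches were not given in the sources used here. Libraries are named by line and mouse number, and KPF libraries 4504h and 4504s carry the number of 1 mouse.

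The proteasome is the cell's main machine for breaking down proteins tagged with ubiquitin. Its 20S core is a barrel of stacked rings, the outer ones of alpha subunits (Psma genes) and the inner ones of beta subunits (Psmb genes), and Psmb5, Psmb6 and Psmb7 encode the subunits that cut. The 19S particle caps the barrel: a ring of ATPases (Psmc genes) unfolds the substrate, and the other subunits (Psmd genes) bind ubiquitin and take it off. Dedicated chaperones build the core (Psmg1 to Psmg4) and the base of the cap (Psmd5, Psmd9 and Psmd10), and the Psme genes encode alternative caps. When proteasomes are inhibited, the transcription factor encoded by Nfe2l1 raises their genes together, whereas interferon raises the immunoproteasome and the cap genes Psme1 and Psme2.

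Levels are given as CPM, counts relative to the size of the library, scaled by TMM, a normalization that assumes that most genes do not differ. Each library held between 8116539 and 9635514 counts on genes, and 3 counts amounted to 0.292 to 0.437 CPM. Reads without a unique alignment made up 43.8 to 48.5% of reads in KPF libraries and 49.2 to 53.4% in KPYYF libraries, and the part of this difference in the results was not tested. Yap1 checked the labels: it lay between 41.8 and 151 CPM in KPF libraries and at 0.712, 2.84 and 7.12 CPM in KPYYF libraries. All 5 epithelial markers lay lower in KPYYF cells, with a median log2 fold change of -2.49. They summed to 2774 to 6957 CPM in KPF libraries and to 500 to 1305 CPM in KPYYF libraries. Of the 5, Krt18 (log2 fold change -2.49, edgeR quasi-likelihood adjusted p = 0.0141) and Cdh1 (-2.92, adjusted p = 0.0351) had an adjusted p under 0.05. In KPYYF cells these 2 still held 243 to 461 and 94.0 to 245 CPM. The adjusted p of Krt18 passed 0.05 without KPYYF library 4891 or 4938 (up to 0.0557), and that of Cdh1 without either of these or KPF library 4269, 4435 or 4504s (up to 0.114). The 13 leukocyte markers summed to 7881 CPM in KPF library 4601 and to between 366 and 1319 CPM elsewhere. The 6 acinar markers summed to 19920 CPM in KPF library 4504s and to 5907 CPM in KPYYF library 4449, against at most 992 CPM elsewhere. The 7 fibroblast markers summed to 404 to 5413 CPM in KPF libraries and to 1103 to 3047 CPM in KPYYF libraries. Xist passed 1000 counts in the 3 KPYYF libraries and in 3 of the KPF libraries. In bulk libraries, fewer cells of a type and less RNA per cell cannot be told apart.

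Transcripts of the proteasome genes were mostly at equal or higher levels in Tm+Yap- cells, by small amounts, and no single subunit passed the test across all genes. The log2 fold change of KPYYF over KPF was above 0 for 36 of 45 members and below 0 for 9. Among all 14105 genes tested 46.7% lay above 0, and among the 9188 genes with a mean of at least 10 CPM 49% did. The median of the members was 0.35, against -0.07 for all genes tested and -0.02 for the more abundant ones. Without Psmc3ip, 35 of 44 members lay above 0 with a median of 0.32.

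In edgeR's quasi-likelihood test, adjusted by Benjamini-Hochberg across every tested gene, 0 members were higher and 0 lower at an adjusted p under 0.05, where 0.305% of all genes tested were higher and 0.794% lower. At an unadjusted p under 0.05, 6 members were higher, namely Psmc3ip, Psmd3, Psma7, Psmd12, Psmg3 and Psmd5, which is 13.3% of the members against 6.1% of all genes. Without Psmc3ip, 5 of 44 members were higher. None was lower at that threshold, against 10% of all genes. DESeq2 called 1 member after adjustment, Psmc3ip (log2 fold change 3.01, adjusted p = 0.00287), and limma's voom called 0. On simulated counts of this design, a larger share of DESeq2's calls than of edgeR's was false. Those counts were drawn with edgeR's own dispersions, which can favor edgeR, so they do not settle the call of Psmc3ip. Even there edgeR missed many of the changes put in, and changes as small as those of most members were not simulated. The 0 adjusted calls by edgeR therefore do not show that the members were unchanged. The count of 6 fell to 3 without KPYYF library 4938 and to 3 in the libraries with Xist alone. It rose to 11 without KPF libraries 4504s and 4601 and KPYYF library 4449, the ones with the most leukocyte or acinar transcripts. Adjusted calls over all genes moved too, from 43 higher and 112 lower in the main fit. They were 11 and 13 without KPYYF 4938, 6 and 31 with Xist, and 60 and 177 without those 3 libraries. The share of all genes at the unadjusted threshold is not given for these fits, so their member counts have no background.

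**Figure D1:**
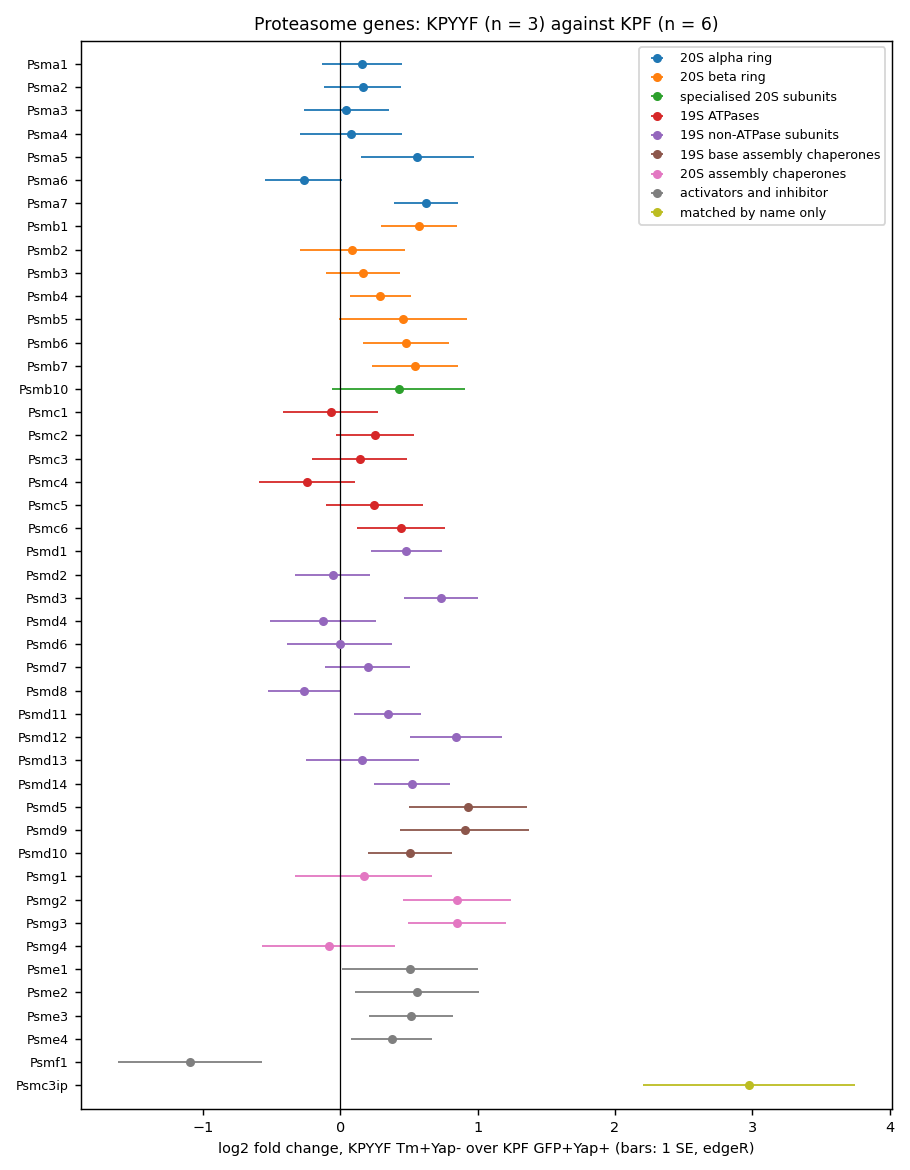
Log2 fold change of each tested member (horizontal axis, KPYYF over KPF, bars 1 SE from edgeR), grouped by subcomplex in color. All 7 genes of the beta ring lie to the right of 0, Psmc3ip lies farthest right at 2.97 and Psmf1 farthest left at -1.09.

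Library by library, the KPYYF cells exceeded the KPF mean of log2 CPM in 30, 32 and 38 of the 45 members in libraries 4449, 4891 and 4938. The share of all genes tested above their KPF mean was 47.2%, 48.7% and 48.6% in the same libraries. In KPF libraries, whose own values enter that mean, 15 to 25 members lay above it, with library 4515 lowest. The median deviation of the members was 0.28, 0.36 and 0.41 in the KPYYF libraries and between -0.23 and 0.09 in the KPF libraries. The groups did not overlap in that summary, which rests on 3 libraries.

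**Figure D2:**
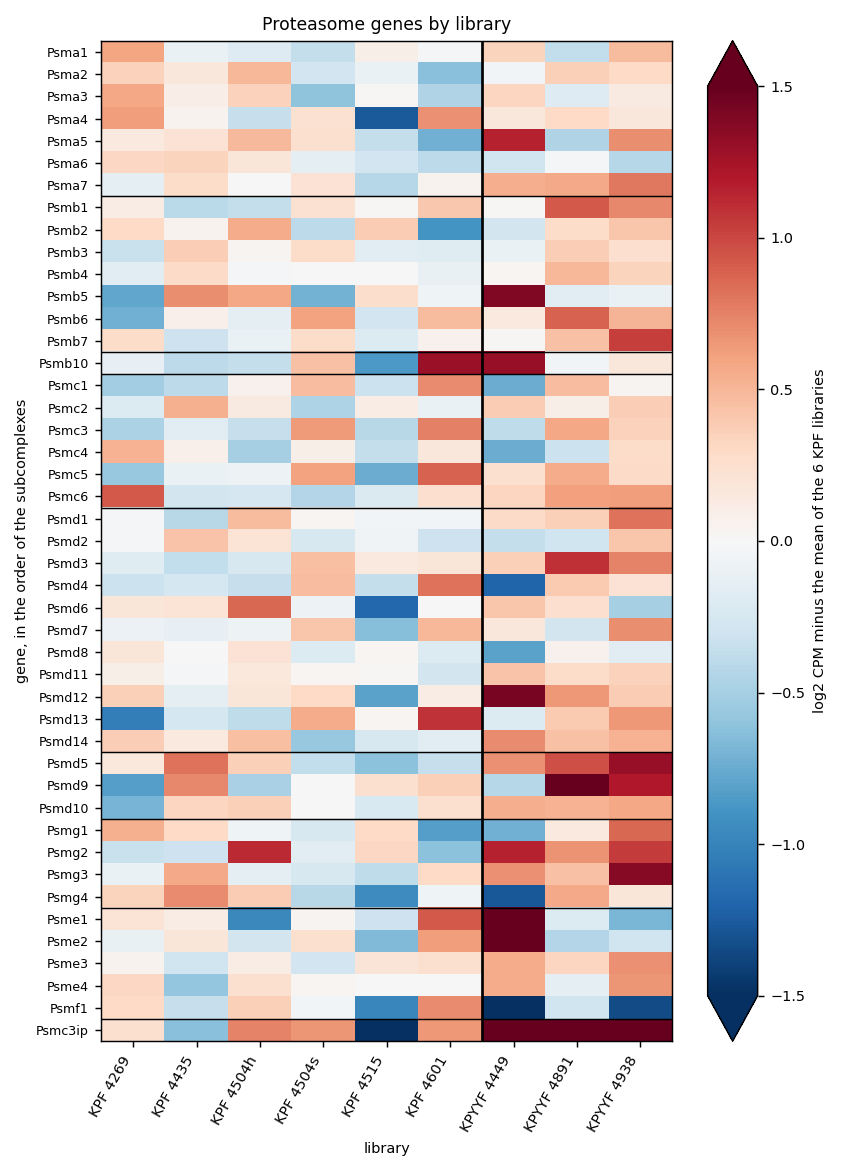
Log2 CPM of each tested member minus its mean over the 6 KPF libraries (color, cut at -1.5 and 1.5), with genes in rows by subcomplex and libraries in columns. The KPYYF columns are mostly red, KPYYF 4449 departs from 4891 and 4938 in both directions, and KPF 4601 shares its high Psmb10, Psme1 and Psme2 with KPYYF 4449.

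Every KPYYF library lay above every KPF library in 6 members, Psma7, Psmc3ip, Psmd10, Psmd11, Psmd12 and Psme3, or 13.3% of those tested. The same held for 3.92% of all genes tested and for 4.77% of those with a mean of at least 10 CPM. In 0 members did every KPYYF library lie below every KPF library, against 5.18% of all genes. Without Psmc3ip, 5 of 44 members had every KPYYF library above every KPF library.

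Promoters of the members were compared by the letters they hold. RefSeq (GRCm38.p6) gave a promoter of 250 bases before to 50 after the start for 40 of the 48 members, and 6 short motifs were searched on both strands. CCGGAAG, a core bound by ETS factors, was in the promoters of 15 of 40 members (37.5%), against 9.93% of all 27025 genes with a promoter and 19.4% of the 10300 tested ones. TGACNNNGC, the antioxidant response element through which Nfe2l1 acts, was in 6 members (15%): Psmb5, Psmb6, Psmc6, Psmd12, Psmd9 and Psme4. Its share was 14% of all genes and 16.8% of tested genes. The interferon-stimulated response element ISRE was in 5 members (12.5%): Psmb3, Psmd4, Psmd9, Psme1 and Psmg4. Its share was 3.99% of all genes and 3.72% of tested genes. CCAAT, bound by NF-Y, was in 14 members (35%) against 42.5% of tested genes, CACGTG, the E-box, in 4 (10%) against 11.6%, and GGAATG, bound by the TEAD partners of Yap, in 4 (10%) against 14.8%. These matches are descriptions of sequence, and no binding was measured. CCAAT and GGAATG are short, and a promoter can hold several of these motifs.

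Of the 6 members whose groups did not overlap, 4 held the ETS core, among them Psmc3ip, which is no proteasome subunit. Over all members with a promoter it was 15 of 40, and a link between the core and the levels was not tested. The 4 with the core are shown with every match in the stretch in capitals, on the strand of the gene. The core reads as CTTCCGG where it lies on the other strand.
Psmd11, chr11:80428579-80428614 (+): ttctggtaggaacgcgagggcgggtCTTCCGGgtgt
Psme3, chr11:101316081-101316137 (+): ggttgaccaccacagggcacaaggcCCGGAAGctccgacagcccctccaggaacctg
Psmc3ip, chr11:101095481-101095537 (-): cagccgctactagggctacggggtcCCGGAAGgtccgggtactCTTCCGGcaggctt
Psmd12, chr11:107479501-107479527 (+): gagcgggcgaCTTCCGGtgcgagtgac
The first match shown begins 11, 107, 77 and 17 bases before the RefSeq start in these genes, and the other match shown for Psmc3ip 59 bases before it. Outside the stretches shown, a further match of Psmc3ip begins 7 bases before the start and another of Psme3 just past it. Psma7, which also did not overlap between groups, held CCAAT and no ETS core, and so did Psmd10. The catalytic genes Psmb5 and Psmb6 are shown with the antioxidant response element in capitals, at 47 and 9 bases before the start, because Nfe2l1 acts through it.
Psmb5, chr14:54618023-54618067 (-): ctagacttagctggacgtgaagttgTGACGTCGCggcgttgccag
Psmb6, chr11:70525323-70525356 (+): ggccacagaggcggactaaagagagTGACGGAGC
Of the members with an ISRE, Psme1 alone was highest in KPYYF library 4449, whereas Psmb10 and Psme2, also highest there, held no match. Psme1 is shown with its ISRE in capitals, on the strand opposite to the gene and just past the RefSeq start, as the activator gene that varied most between libraries.
Psme1, chr14:55578493-55578522 (+): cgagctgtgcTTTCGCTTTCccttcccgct

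In the alpha ring, the gate of the core, 6 of 7 genes lay above 0 with a median log2 fold change of 0.16, and Psma7 stood apart from the rest. Psma7 (ENSMUSG00000027566, chr2:180036374-180042433, minus strand) lay at 242, 334 and 394 CPM in KPF cells (lowest, median and highest) and at 478, 485 and 567 CPM in KPYYF libraries 4449, 4891 and 4938. The 3 KPYYF libraries sat close together and above all KPF libraries. Its mean was 330 ± 55.6 CPM (SD, n = 6) in KPF cells and 510 ± 49.4 CPM (SD, n = 3) in KPYYF cells, a log2 fold change of 0.63 ± 0.23 (SE, edgeR unadjusted p = 0.0187, adjusted p = 0.202). Without KPYYF library 4938 the unadjusted p was 0.0740, and in the libraries with Xist 0.0977. Psma5 had nearly as large a change, 0.56 ± 0.41, but its KPYYF libraries held 61.6, 20.1 and 44.8 CPM and overlapped the KPF range of 16.6 to 38.6 CPM. Psma6 was the one alpha gene below 0, at -0.27 ± 0.28, and the other alpha genes lay between 0.04 and 0.16.

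All 7 genes of the beta ring lay above 0, from 0.09 for Psmb2 to 0.57 for Psmb1, with a median of 0.46 and 0 of them past the unadjusted threshold. The catalytic genes varied unevenly across libraries. Psmb5, the chymotrypsin-like subunit and the target of bortezomib, held 17.6, 32.8 and 49.2 CPM in KPF cells and 79.9, 26.9 and 28.2 CPM in KPYYF cells. Only library 4449 exceeded the KPF range, and without it the log2 fold change of 0.46 ± 0.47 (SE) turned to -0.25. Psmb6, the caspase-like subunit, held 119, 193 and 298 CPM in KPF cells and 218, 364 and 281 CPM in KPYYF cells (0.48 ± 0.31). Psmb7, the trypsin-like subunit, held 37.6, 46.2 and 56.7 CPM in KPF cells and 47.3, 63.6 and 95.8 CPM in KPYYF cells (0.54 ± 0.31). Thus library 4449 had the highest Psmb5 and the lowest Psmb6 and Psmb7 of the KPYYF cells. Psmb1, a structural subunit, held 167 to 294 CPM in KPF cells and 224, 420 and 365 CPM in KPYYF cells (0.57 ± 0.28, unadjusted p = 0.0602, adjusted p = 0.337). Psmb4, another structural subunit, varied least of the ring in KPF cells, at 483 ± 55.0 CPM, and lay at 490, 677 and 608 CPM in KPYYF cells (0.29 ± 0.22).

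The 19S ATPases, the motor of the cap, had a median of 0.19 and 4 of 6 genes above 0. Psmc6 was highest at 0.45 ± 0.32 and Psmc4 lowest at -0.24 ± 0.35, and neither passed a threshold. Psmc1, Psmc3 and Psmc5 were high within the KPF group in libraries 4504s and 4601, where both lay above the other 4 KPF libraries. This was so for 11 members (24.4%), also Psmb1, Psmb6, Psmb10, Psmd3, Psmd4, Psmd7, Psmd13 and Psme2, against 11.5% of all genes tested. The reverse held for 6 members (13.3%), Psma2, Psma3, Psmb2, Psmd2, Psmd8 and Psmg1, against 8.85% of all genes. These 2 libraries were singled out after their values were seen. They are also the ones with the highest sums of leukocyte markers (1319 and 7881 CPM), and the part of other cells in the pattern was not tested.

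Among the other subunits of the cap 7 of 11 lay above 0, with a median of 0.20, and Psmd3 and Psmd12 were the ones past the unadjusted threshold. Psmd3 (ENSMUSG00000017221, chr11:98682554-98695979, plus strand), a scaffold of the lid, held 124, 159 and 219 CPM in KPF cells and 205, 342 and 270 CPM in KPYYF cells. Libraries 4891 and 4938 exceeded all KPF libraries, whereas 4449 lay under the highest of them. The log2 fold change was 0.74 ± 0.27 (SE, 1.67-fold, edgeR unadjusted p = 0.0165, adjusted p = 0.191), and without library 4891 the unadjusted p was 0.103. Psmd12 (ENSMUSG00000020720, chr11:107479484-107504362, plus strand), another lid scaffold, held 29.7, 57.5 and 66.8 CPM in KPF cells and 140, 81.7 and 67.5 CPM in KPYYF cells. Its groups did not overlap, though library 4938 exceeded the highest KPF library by under 1 CPM. The log2 fold change was 0.84 ± 0.33 (SE, 1.79-fold, unadjusted p = 0.0252, adjusted p = 0.227), and without library 4449 it was 0.47 with an unadjusted p of 0.208. The unadjusted p was also above 0.05 by voom (0.0785), in the libraries with Xist (0.0604) and without KPF 4504s, KPF 4601 and KPYYF 4449 (0.167). Psmd11, which holds lid and base together, had the smallest spread of all members in KPF cells, with a coefficient of variation of 9.68%. It held 66.3 to 89.3 CPM there and 108, 96.8 and 102 CPM in KPYYF cells, without overlap, a log2 fold change of 0.35 ± 0.24 (SE, unadjusted p = 0.178).

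Psmd14, the deubiquitinase of the lid, held 71.3 to 144 CPM in KPF cells and 173, 143 and 152 CPM in KPYYF cells (0.52 ± 0.28, unadjusted p = 0.0835, adjusted p = 0.386). Psmd1, the largest scaffold of the base, changed by 0.48 ± 0.26. The ubiquitin receptor gene Psmd4 held 90.4 CPM in library 4449, under the KPF range of 162 to 366 CPM, and 272 and 241 CPM in the other KPYYF libraries (-0.13 ± 0.39). Psmd2 and Psmd6 lay at -0.06 ± 0.27 and -0.01 ± 0.38, and Psmd8 was lowest at -0.26 ± 0.26.

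**Figure D3:**
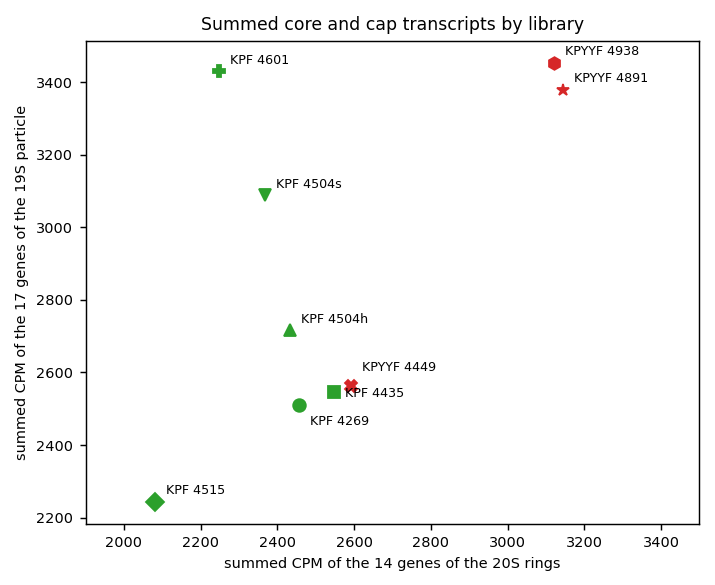
Summed CPM of the 14 genes of the 20S rings (horizontal) against the summed CPM of the 17 genes of the 19S particle (vertical), each point 1 library, green for KPF and red for KPYYF, both axes starting above 0. KPYYF 4891 and 4938 sit at the upper right, KPYYF 4449 lies beside KPF 4435, and KPF 4601 has the highest ratio of the sums.

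Summed over the 14 genes of the rings, the core reached 2592, 3145 and 3121 CPM in the KPYYF libraries and 2081 to 2548 CPM in the KPF libraries, so the groups did not overlap. That separation rests on Psma7. KPYYF 4449 passed the highest KPF library, 4435, by less in the sum (2592 against 2548 CPM) than in Psma7 alone (478 against 394 CPM). The 17 genes of the cap summed to 2563, 3380 and 3454 CPM in KPYYF cells and to 2244 to 3431 CPM in KPF cells, which did overlap. The ratio of the cap sum to the core sum was 0.989 to 1.11 in KPYYF libraries. In KPF libraries it was 1.30 in 4504s and 1.53 in 4601 but 1.00 to 1.12 in the other 4.

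The chaperones that assemble the cap's base had the highest median of the subcomplexes, 0.91, and all 3 lay above 0. Psmd5 (ENSMUSG00000026869, chr2:34849734-34874968, minus strand), which holds back an ATPase module until the base is complete, held 10.4, 15.2 and 28.4 CPM in KPF cells and 25.9, 31.4 and 40.0 CPM in KPYYF cells. All 3 KPYYF libraries exceeded the KPF median and 2 exceeded the highest KPF library. Its log2 fold change was 0.93 ± 0.43 (SE, 1.91-fold, unadjusted p = 0.0482, adjusted p = 0.304), with the unadjusted p at or over 0.05 in 7 of the 9 fits that left out a library and in that with 4504h and 4504s summed (0.0637). Psmd9, which helps join ATPase subunits, held 12.4, 24.4 and 37 CPM in KPF cells and 16.5, 65.5 and 51.6 CPM in KPYYF cells. Library 4449 lay within the KPF range and the other KPYYF libraries above it, for a log2 fold change of 0.91 ± 0.47 (SE, unadjusted p = 0.0744, adjusted p = 0.368). Psmd10, known as gankyrin, is X-linked and held 31.7, 56.4 and 66.3 CPM in KPF cells and 75.4, 74.1 and 77.5 CPM in KPYYF cells. The KPYYF libraries lay within a few CPM of each other and above every KPF library, at 0.51 ± 0.30 (SE, unadjusted p = 0.118). In the libraries with Xist the log2 fold change was 0.33 (unadjusted p = 0.312).

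Among the chaperones of the core, which pair up to build the alpha ring, Psmg2 and Psmg3 lay higher in KPYYF cells and Psmg1 and Psmg4 near 0. Psmg3 (ENSMUSG00000029551, chr5:139823592-139826885, minus strand) held 19.8, 23.6 and 38.3 CPM in KPF cells and 41.4, 35.0 and 66.7 CPM in KPYYF cells. Library 4891 overlapped the KPF range. The log2 fold change was 0.85 ± 0.36 (SE, 1.80-fold, unadjusted p = 0.0342, adjusted p = 0.260), and without library 4938 it was 0.53 with an unadjusted p of 0.228. The unadjusted p was at or over 0.05 in 4 of the 9 fits that left out a library, those of KPF 4504h, 4504s and 4515 and of KPYYF 4938, with 4504h and 4504s summed (0.0582) and in the libraries with Xist (0.0999). Psmg2 held 22.0, 28.8 and 73.7 CPM in KPF cells and 76.0, 54.0 and 70.4 CPM in KPYYF cells. Its highest KPF value, in library 4504h, reached the KPYYF range, and the log2 fold change was 0.85 ± 0.39 (SE, unadjusted p = 0.0503, adjusted p = 0.310). Psmg1, the partner of Psmg2, changed by 0.17 ± 0.50, with 9.62 CPM in library 4449 and 29.1 CPM in 4938. Psmg4, the partner of Psmg3, changed by -0.09 ± 0.48, with 11.2 CPM in library 4449 and 40.7 CPM in 4891. Both pairs of partners therefore had their lowest KPYYF value for 1 partner in library 4449.

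**Figure D4:**
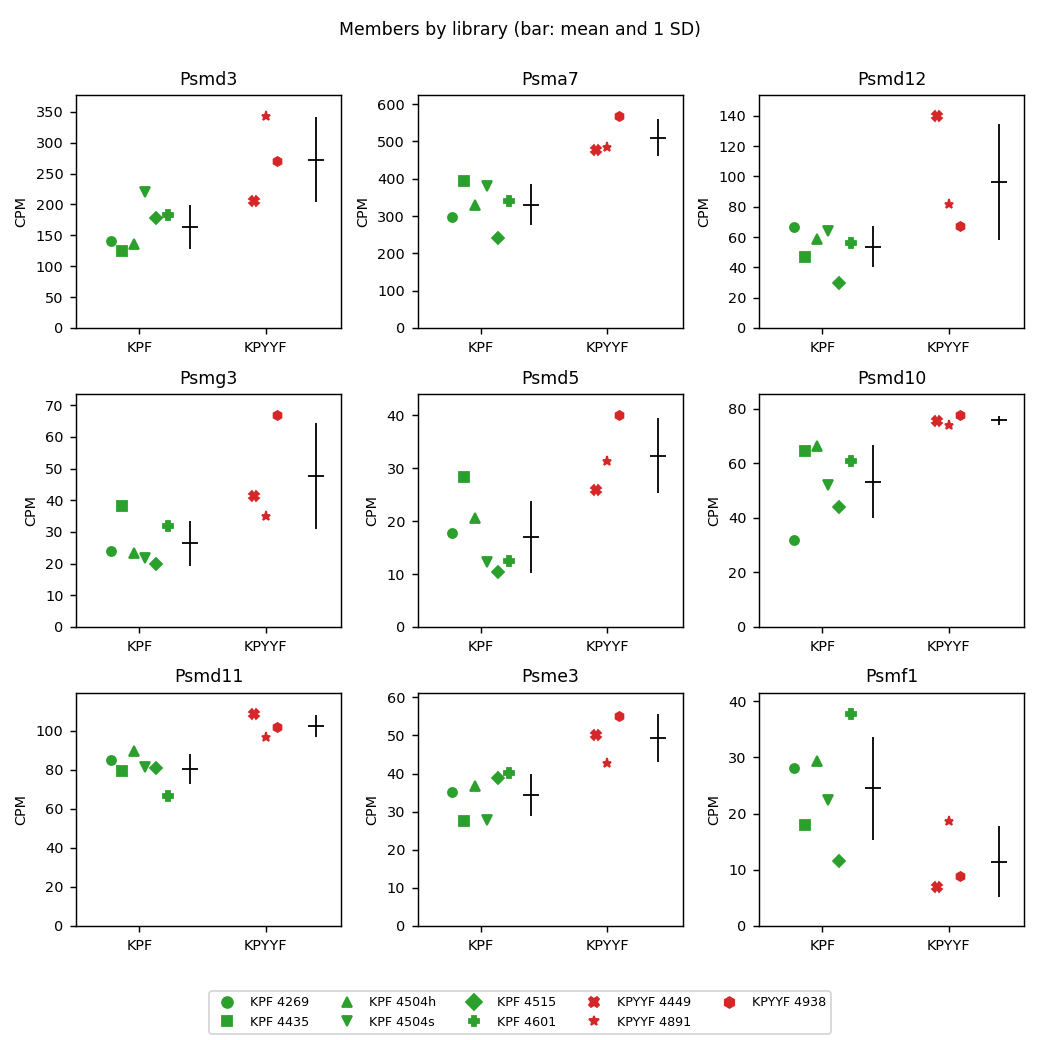
CPM by library (vertical axis, from 0) of 9 members, green for KPF and red for KPYYF, with a symbol for each library and a bar for the mean and 1 SD. Psma7, Psmd10, Psmd11, Psmd12 and Psme3 do not overlap between the groups, Psmd3, Psmg3 and Psmd5 overlap by 1 library, and Psmf1 lies lower in the KPYYF libraries.

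The inhibitor gene Psmf1 had the lowest log2 fold change of the members. It encodes PI31, which binds the core and acts in proteasome transport and assembly. Psmf1 held 11.5, 25.2 and 37.6 CPM in KPF cells and 6.89, 18.6 and 8.88 CPM in KPYYF cells. All 3 KPYYF libraries lay under the KPF median and 2 under the lowest KPF library. The log2 fold change was -1.09 ± 0.52 (SE, 2.14-fold lower, unadjusted p = 0.0563, adjusted p = 0.327). With a library left out it ran from -1.63 (without KPYYF 4891, unadjusted p = 0.0180) to -0.83 (without KPYYF 4449, unadjusted p = 0.161), and the unadjusted p was under 0.05 in 2 of these 9 fits. Without KPF 4504s, KPF 4601 and KPYYF 4449 together it was -0.62 (unadjusted p = 0.342).

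Psme3, the activator of nuclear proteasomes known as PA28 gamma, held 27.7, 36.0 and 40.1 CPM in KPF cells and 50.1, 42.6 and 55.0 CPM in KPYYF cells. The groups did not overlap, with a log2 fold change of 0.52 ± 0.31 (SE, unadjusted p = 0.114, adjusted p = 0.444). Psme4, the activator known as PA200, held 48.1 to 89.9 CPM in KPF cells and 106, 66.0 and 115 CPM in KPYYF cells (0.38 ± 0.29). Psme2b, a near copy of Psme2, held 70 counts in all, with 3, 2 and 3 counts in the KPYYF libraries and 3 to 23 in the KPF libraries.

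The genes that interferon gamma raises, Psmb10, Psme1 and Psme2, were split among the KPYYF libraries rather than between the groups. Psmb10, the immunoproteasome counterpart of Psmb7, held 20, 30.9 and 89.5 CPM in KPF cells and 90.4, 35.5 and 41.0 CPM in KPYYF cells. Psme1 held 37.6, 78.1 and 140 CPM in KPF cells and 231, 63.9 and 45.8 CPM in KPYYF cells. Psme2, its partner in the PA28 ring and its neighbor on chromosome 14, held 33.5, 55.0 and 82.4 CPM in KPF cells and 162, 39.4 and 43.4 CPM in KPYYF cells. In all 3 genes KPYYF library 4449 was the highest of the 9 libraries and KPF library 4601 the highest of the KPF group. The other KPYYF libraries lay within the KPF range.

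Their log2 fold changes were 0.43 ± 0.48, 0.51 ± 0.50 and 0.56 ± 0.45 (SE), none past a threshold, and each turned negative without library 4449 (-0.11, -0.54 and -0.42). Of 7 regulators of the interferon response 6 lay above 0 with a median of 0.48, and several of them, among these Stat2, Irf9 and Nlrc5, were highest in that library. Irf9, a DNA-binding partner in the interferon response, held 92.3 CPM in library 4449, 63.5 and 32.4 CPM in the other KPYYF libraries and 50 CPM or less in KPF cells. Nlrc5, which switches on antigen presentation genes, held 20.3 CPM in 4449, 7.43 CPM in 4601 and at most 2.19 CPM elsewhere. Ifngr1, a chain of the interferon gamma receptor, held 64.2 to 216 CPM in KPF cells and 67.0, 42.4 and 19.6 CPM in KPYYF cells, at -1.76 ± 0.48 (SE, edgeR unadjusted p = 0.00292, adjusted p = 0.101). The leukocyte markers summed to 704 CPM in library 4449, within the range of the KPF libraries other than 4601. Of the 13 markers 4 held 0 counts there, as in KPYYF 4891, against 5 in KPF 4504h and 4515 and 0 in KPF 4601. The acinar markers of library 4449 summed to 5907 CPM. The part of other cells in the result was not tested.

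**Figure D5:**
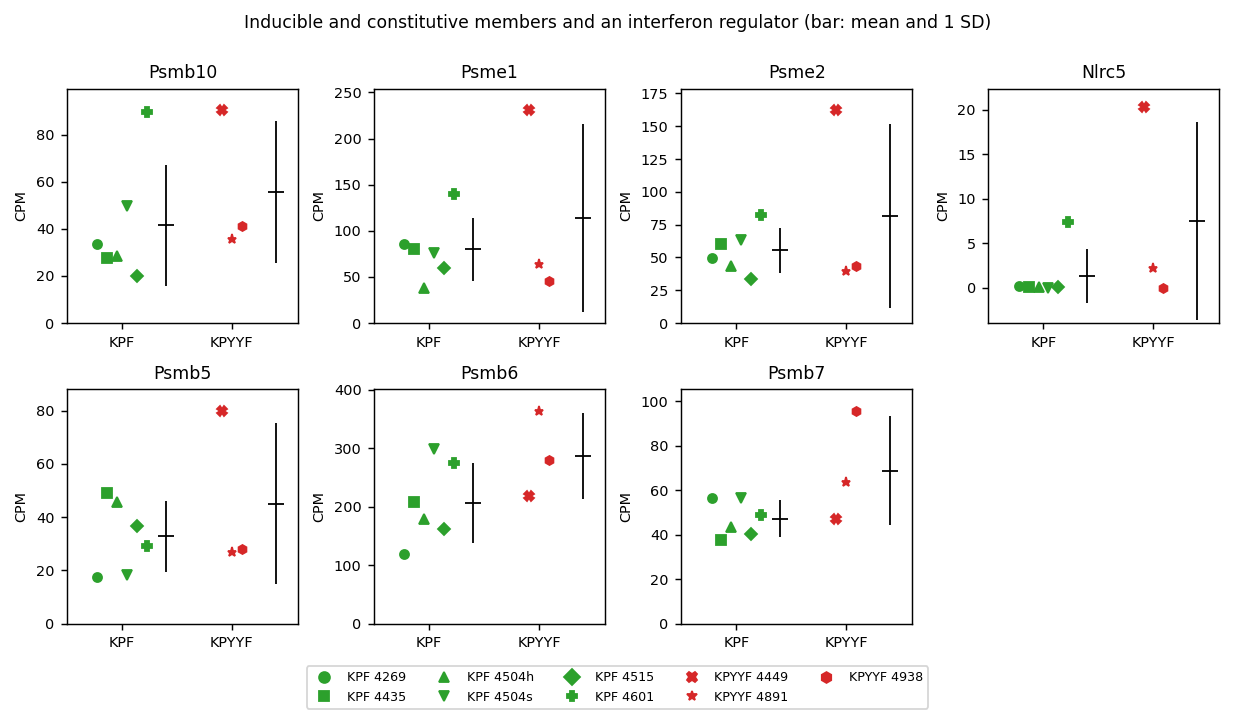
CPM by library (vertical axis) of the inducible members Psmb10, Psme1 and Psme2, the interferon regulator Nlrc5, and the catalytic genes Psmb5, Psmb6 and Psmb7, green for KPF and red for KPYYF, with bars for the mean and 1 SD. KPYYF 4449 is the top point in the first 4 panels and in Psmb5, and KPF 4601 is the top KPF point in the first 4.

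Within a library, the ratio of Psmb10 to its constitutive counterpart Psmb7 and that of Psme1 to Psme3 do not depend on scaling. The log2 ratio of Psmb10 to Psmb7 counts was -0.36 ± 0.66 (SD, n = 6) in KPF cells and -0.38 ± 1.15 (SD, n = 3) in KPYYF cells, a difference of -0.02 (two-sided exact permutation test, p = 0.988). It was 0.93 in KPYYF 4449 and 0.87 in KPF 4601, and between -1.22 and -0.19 in the other libraries. The log2 ratio of Psme1 to Psme3 was 1.12 ± 0.67 (SD, n = 6) in KPF cells and 0.84 ± 1.25 (SD, n = 3) in KPYYF cells, a difference of -0.28 (two-sided exact permutation test, p = 0.667). The smallest p that 3 against 6 libraries allow is 0.0119. Library 4449 had the highest value of both ratios and 4938 the lowest, so the spread among KPYYF cells exceeded the difference between the groups.

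The tissue-specific members were close to absent. Psmb11, the thymus-specific beta subunit, gave 2 counts, both in KPF library 4515. Psma8, the testis-specific alpha subunit, gave 14 and 12 counts in KPF libraries 4504h and 4504s, the pair from 1 mouse number, and at most 1 elsewhere. The limit that a count of 0 allows in a library, 3 counts, was 0.328 to 0.356 CPM in KPYYF cells.

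Psmc3ip, which the rule caught by name only, had the highest log2 fold change of the 45 tested genes. It held 0.443, 2.65 and 3.27 CPM in KPF cells and 11.8, 27.8 and 12.6 CPM in KPYYF cells, without overlap. The log2 fold change was 2.97 ± 0.77 (SE, 7.86-fold, edgeR unadjusted p = 0.00196, adjusted p = 0.0905), and over the alternatives the adjusted p ranged from 0.00287 to 0.293. An exon of the gene overlaps one of Mlx on the opposite strand.

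Genes outside the rule that work with the proteasome were given for comparison. Of 11 partners of the particle 5 lay above 0, with a median of -0.08. Uchl5, a deubiquitinase docked on the cap, held 30.6 to 55.2 CPM in KPF cells and 66.4, 95.7 and 89.1 CPM in KPYYF cells. Its groups did not overlap, at 0.89 ± 0.30 (SE, edgeR unadjusted p = 0.00982, adjusted p = 0.159). Usp14, another deubiquitinase of the cap, changed by -0.45 ± 0.36, Adrm1, the cap's receptor for both ubiquitin and Uchl5, by 0.38 ± 0.35, and Pomp, the maturation factor of the core, by 0.51 ± 0.34. The regulator Nfe2l1 held 73.6 to 91.7 CPM in KPF cells and 77.5, 78.0 and 83.4 CPM in KPYYF cells, a difference of -0.06 ± 0.25. Nfe2l2, its relative that answers oxidative stress, changed by -0.16 ± 0.39.

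Among 10 regulators of proteasome genes, 1 passed the adjusted threshold. Maff, a small Maf protein that pairs with both of these factors, held 41.1 to 116 CPM in KPF cells and 13.4, 13.4 and 17.9 CPM in KPYYF cells, a log2 fold change of -2.09 ± 0.41 (SE, edgeR adjusted p = 0.0351). The direction held but the adjusted p passed 0.05 in 6 of the 9 fits without a library, those of KPF 4435, 4504s and 4515 and of each KPYYF library (up to 0.105). The adjusted p of Maff was also above 0.05 with 4504h and 4504s summed (0.0521), by voom (0.0758), in the libraries with Xist (0.136) and without KPF 4504s, KPF 4601 and KPYYF 4449 (0.0902). Of the other small Maf genes, Mafk was lower at the unadjusted threshold and not after adjustment (-1.53 ± 0.71, unadjusted p = 0.0485, adjusted p = 0.305) and Mafg lay at 0.37 ± 0.24. Of 6 shuttle factors that carry ubiquitin to the cap 4 lay above 0 with a median of 0.40, and of 8 genes of the p97 segregase 5 did with a median of 0.12, none past a threshold. Of 6 ubiquitin and E1 genes 3 lay above 0, with a median near 0. Rps27a, a fusion of ubiquitin and a ribosomal protein, held 313 to 615 CPM in KPF cells and 845, 2986 and 707 CPM in KPYYF cells (1.75 ± 0.41, unadjusted p = 0.000944, adjusted p = 0.0631). Library 4891 stood far above the others, and without it the log2 fold change was 0.79.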

How the data were processed

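RNA of FACS-sorted KPF GFP+Yap+ cells (6 libraries) and KPYYF Tm+Yap- cells (3 libraries) was read from the 3′ end (Lexogen QuantSeq Forward). The authors deposited raw counts per Ensembl gene, 1 file a library, and their processing notes name STAR, HTSeq and mm10. The annotation release, the versions and the strand setting are not given in the sources used here. The methods section describes BeadChips, DESeq2 and the same filter on the sum of counts used here, whereas the files hold whole counts. Since reads without a unique alignment were not counted, genes with processed pseudogenes may be undercounted, and 4 members share exon sequence with another gene on the same strand and 10 with one on the opposite strand.

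Of 47643 genes, 47224 matched a symbol in GENCODE M21, which is on the same assembly. The members and lists were chosen with earlier results of these data known. Genes with at least 100 counts in all (14105) were tested by edgeR 4.0.16's quasi-likelihood test (R 4.3.3, TMM factors 0.833 to 1.08, robust, no covariates). Values are two-sided, adjusted by Benjamini-Hochberg over all genes with a threshold of 0.05. Nothing says that the libraries came from separate mice beyond their mouse numbers, so p values measure the spread between these libraries. CPM were TMM-scaled, log2 CPM used a prior count of 2, and ratios used counts plus 0.5. Counting limits of 3 counts cover counting error only. Alternatives were DESeq2 1.42.0, voom with quality weights (limma 3.58.1), 2 other scalings, no filter, filterByExpr, 4504h and 4504s summed, libraries with at least 1000 Xist counts, and each library left out. The edgeR, DESeq2 and voom fits were tested on simulated counts, where DESeq2 recovered more of the changed genes than edgeR and made a larger share of false calls. The simulation used edgeR's dispersions, which can favor edgeR. Named genes were the 10 members with the smallest unadjusted p, the catalytic, specialised, activator, inhibitor and chaperone genes, the largest rise and fall, Yap1, Nfe2l1, Nfe2l2, Pomp, Adrm1, Usp14, Uchl5 and list genes with an unadjusted p under 0.05. Other members are named for their subcomplex, and the 6 whose groups did not overlap after their values were seen. The symbol rule leaves out some inducible core subunits, which are not reported here.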

Additional observations from a re-analysis of the deposited data

Results flagged for a closer look

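Among the values of 45 members and both ratios in the KPF group, the only group large enough for the check, 2 held a library far from the others by Dixon's ratio, the gap to the nearest library over the range. Both were in KPF library 4435. Psme4 was lowest there at 48.1 CPM, with a ratio of 0.638, and Psmb4 was highest there at 588 CPM, with a ratio of 0.658. Chance flags about 1 in 20 groups, and 47 were examined. Without library 4435 the log2 fold change of Psme4 was 0.28 and that of Psmb4 0.36.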

How the results depend on the processing

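The direction of 26 of the 45 members was the same under all 18 alternatives, 23 of them above 0 and 3 below, and that of 19 turned under at least 1. The median of the members moved by less than the spread between KPF libraries under every alternative: it was 0.27 to 0.43 with a library left out (lowest without KPYYF 4938, highest without KPF 4601), 0.30 in the libraries with Xist alone, 0.28 without a filter, and 0.41 without KPF 4504s, KPF 4601 and KPYYF 4449, an alternative chosen after seeing the data and called the reduced set here. Adjusted calls among the members were 0 in each direction except for 1 higher by DESeq2. Members higher at an unadjusted p under 0.05 numbered 6 in the main analysis, 10 by voom, 3 in the libraries with Xist, 11 in the reduced set and 3 (without KPYYF 4938) to 8 (without KPYYF 4449) with a library left out. The share of all genes at that threshold is not given for these alternatives. Members lower at that threshold numbered 1 by DESeq2 and 0 to 1 with a library left out, the 1 being Psmf1, without KPF 4515 or KPYYF 4891. Over all genes, 43 were higher and 112 lower after adjustment, against 269 and 928 by DESeq2, 88 and 219 without a filter, 43 and 44 by voom, 25 and 86 with 4504h and 4504s summed, 6 and 31 in the libraries with Xist, and 60 and 177 in the reduced set. With a library left out they ranged from 6 to 75 higher and from 13 to 198 lower. The causes of these changes were not tested.

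The difference in the log2 ratio of Psmb10 to Psmb7 was 0.040 in the libraries with Xist and -0.67 to 0.40 with a library left out, and that of Psme1 to Psme3 -0.96 to 0.27, lowest without KPYYF 4449 and highest without KPYYF 4938 in both. With a library left out, the log2 fold changes whose sign turned ran from -0.25 to 0.72 for Psmb5, -0.11 to 0.81 for Psmb10, -0.54 to 0.89 for Psme1, -0.42 to 0.89 for Psme2, -0.29 to 0.48 for Psmg1, -0.47 to 0.29 for Psmg4 and -0.44 to 0.19 for Nfe2l2. Those of alpha and beta genes ran from -0.0065 to 0.38 for Psma1, -0.076 to 0.18 for Psma3, -0.057 to 0.24 for Psma4 and -0.052 to 0.27 for Psmb2. Those of the cap ran from -0.37 to 0.19 for Psmc1, -0.063 to 0.37 for Psmc3, -0.034 to 0.47 for Psmd13, -0.35 to 0.082 for Psmd2, -0.40 to 0.23 for Psmd4, -0.19 to 0.22 for Psmd6 and -0.083 to 0.41 for Psmd7. In the reduced set the sign also turned for Psmb5 (-0.41), Psme1 (-0.22), Psme2 (-0.15), Psmg4 (0.19), Nfe2l1 (0.060), Nfe2l2 (0.56), Psma3 (-0.27), Psmc1 (0.57), Psmc4 (0.048) and Psmd4 (0.66). Under voom it turned for Psme1 (-0.12), Psme2 (-0.093), Psmg4 (0.16) and Psmd2 (0.060), and in the libraries with Xist for Nfe2l2 (0.024) and Psmb3 (-0.030). Psmd6, at -0.01, turned under DESeq2 (0.018), RLE (0.018), upper quartile scaling (0.0061), no filter (0.0019) and with 4504h and 4504s summed (0.074). No paired analysis was possible because the labels give no replicate numbers (those used here follow the accession order) and no mouse number recurs in the other line. Depth limits values near 0.3 CPM, under which Psmb11 and most values of Psma8 lay.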
